A study of Mus musculus with 12 samples.

Results

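The data described here are the 6 arrays of old mice, out of 12 in the series, taken as 3 pairs of a high-fat and a low-fat array, 1 pair for each segment of the small intestine (proximal, middle, distal). Gene expression was measured on Affymetrix whole-transcript mouse gene arrays in scrapings of mucosa and submucosa. The old animals were male C57BL/6J mice aged 21 months that ate a semi-synthetic diet with either 10% or 45% of the energy as fat, with palm oil in place of lard, for 2 weeks. Each array held RNA of 8 mice mixed before hybridisation, and the 3 segments of a diet came from the same 8 mice, so the 3 pairs repeat a comparison of the same 2 pools and are not independent animals. The other 6 arrays came from pools of 6 male mice aged 4 months on the same diets, shared no array and no animal with the old pools, and serve below as a separate measure. Both ages had eaten the low-fat diet before the split, and all animals were killed after feeding.

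Dietary fat is taken up by enterocytes as fatty acids and monoglycerides, which are bound by cytosolic carriers, rebuilt into triglycerides and sent out as chylomicrons. A part of the fatty acids is burned in mitochondria and peroxisomes or hydroxylated at the far end of the chain by Cyp4a enzymes. Many of these genes are known targets of the nuclear receptor PPARα, which fatty acids activate, while the transcription factor SREBP, held back when sterols are plentiful, drives cholesterol and fatty acid synthesis. Uptake of most nutrients takes place in the proximal and middle segments, whereas bile acids and vitamin B12 are taken up at the distal end.

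Differences are given as log2 values, high fat minus low fat, for 11924 genes, so that 1 stands for a 2-fold and -1 for a halved intensity. Within a segment there was 1 array per diet, so a difference there has no replicate error and no test. The markers of the epithelium were bright on all 6 arrays, with *Vil1* between 7209 and 7859 intensity units and *Epcam* between 3468 and 4400. Pancreatic acinar genes were bright in the proximal pair only, where *Cpa1* stood at 5965 on low fat and 7487 on high fat against at most 50.7 on the other 4 arrays, and 24 such genes were left out of all counts. No defining marker of a cell type was at 0, but *Cdh5* of endothelium, *Lep* of fat cells and *Muc5ac* of gastric cells were under 50 units on all 6 arrays. Over all genes the proximal pair had a median difference of -0.0040, the middle pair one of -0.0036 and the distal pair one of -0.0113. Of all genes, 15.0% were higher and 17.7% lower in all 3 segments, the shares to set beside such counts for each list below. In the text, 3 values in a row are the proximal, middle and distal segment, in that order.

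The pools of old mice differed over 2-fold between the diets in 33 genes of the proximal segment, 66 of the middle and 71 of the distal one. Of the proximal genes 27 were higher on high fat (0.226% of all genes) and 6 lower (0.0503%), and of the middle genes 50 were higher (0.419%) and 16 lower (0.134%). The distal segment had the opposite balance, with 22 genes higher (0.185%) and 49 lower (0.411%). When each array was centred on its median, the distal pair had 26 genes higher and 35 lower. Of the 135 genes over 2-fold in at least 1 segment, 105 were so in exactly 1, 25 in exactly 2 and 5 in all 3, and 55 of the 105 belonged to the distal segment.

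**Figure D1:**
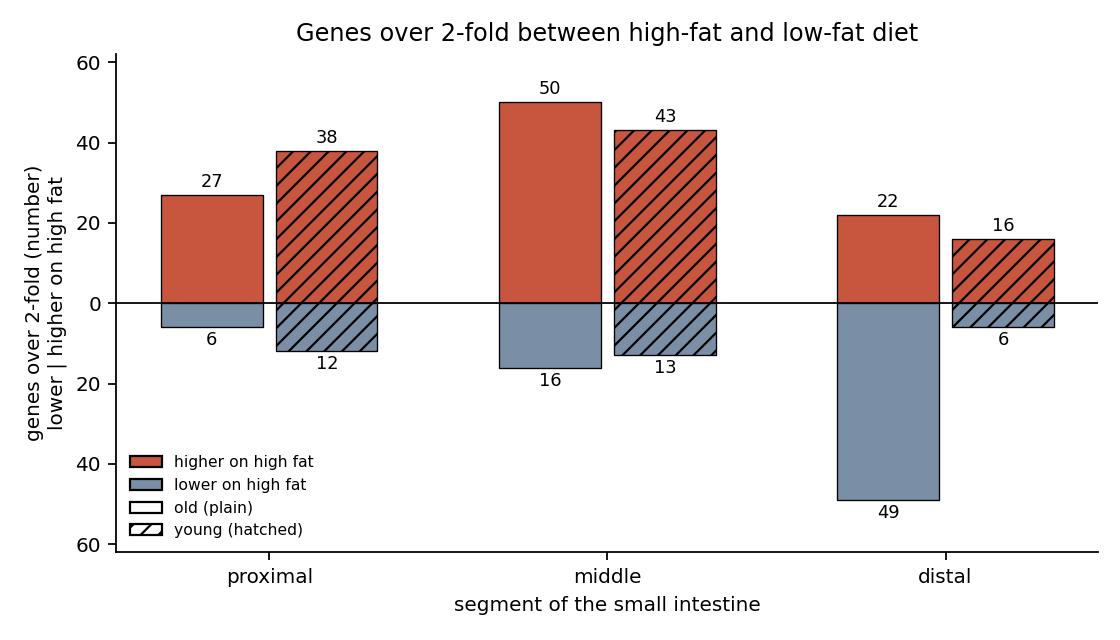
Number of genes over 2-fold between the high-fat and the low-fat array in each segment, higher above and lower below the zero line, for old mice (plain bars) and young mice (hatched bars), 1 array per diet, segment and age. The old distal segment has 49 genes on the lower side, against 6 in the young distal segment.

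The 3 genes that rose over the segments of the old mice in limma's moderated test were *Scd1*, *Tubb2a* and *Slc23a1*, which is 0.0252% of all genes, and no gene fell. *Scd1* encodes stearoyl-CoA desaturase, which makes oleic acid from saturated fat. Its log2 intensity on low and high fat was 6.78 and 8.37 proximally, 8.76 and 10.36 at mid-gut and 10.04 and 11.33 distally. The level climbed along the intestine on both diets, and the high-fat array was the higher one in every segment. The mean difference was 1.49 ± 0.10 (SE over 3 segments, limma adjusted p = 0.0178, 95% interval 1.26 to 1.72).

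*Tubb2a*, a beta-tubulin, went from 7.36 to 8.55, from 6.68 to 8.34 and from 6.94 to 8.46 along the 3 segments. Here the 3 high-fat arrays lay together and above all 3 low-fat arrays. The mean difference was 1.45 ± 0.11 (limma adjusted p = 0.0245). *Slc23a1*, a sodium-dependent vitamin C transporter, was measured at 8.57 and 9.41, at 9.38 and 10.34, and at 7.73 and 8.62 in the same order, each low fat first. The differences of 0.85, 0.96 and 0.89 were nearly equal, and their mean was 0.90 ± 0.08 (limma adjusted p = 0.0489). These p-values measure the spread between segments of the same mice, not between mice. *Slc23a1* missed the threshold under 6 of 12 alternatives, among them the fits without the proximal or the middle pair. Without the distal pair 110 genes passed the test, 71 rises and 39 falls, without the proximal pair 17 and without the middle pair 3. At an unadjusted p under 0.05 there were 554 rises and 609 falls.

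The 5 genes over 2-fold in the same direction in all 3 segments were *Scd1*, *Tubb2a*, *Me1*, *Slc6a3* and *Pfkfb3*. *Me1*, the cytosolic malic enzyme that supplies NADPH for fatty acid synthesis, was higher by 1.92, 3.17 and 1.01. *Slc6a3*, known as the dopamine transporter, was higher by 1.17, 2.02 and 1.10, but it did not pass 50 intensity units on all arrays. *Pfkfb3*, which makes the activator of the glycolytic enzyme phosphofructokinase, was the lower one (-1.36, -2.02 and -1.02). All 3 differed most in the middle segment, and none passed the test over segments (limma adjusted p = 0.131 for *Me1*, 0.0762 for *Slc6a3* and 0.0762 for *Pfkfb3*).

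**Figure D2:**
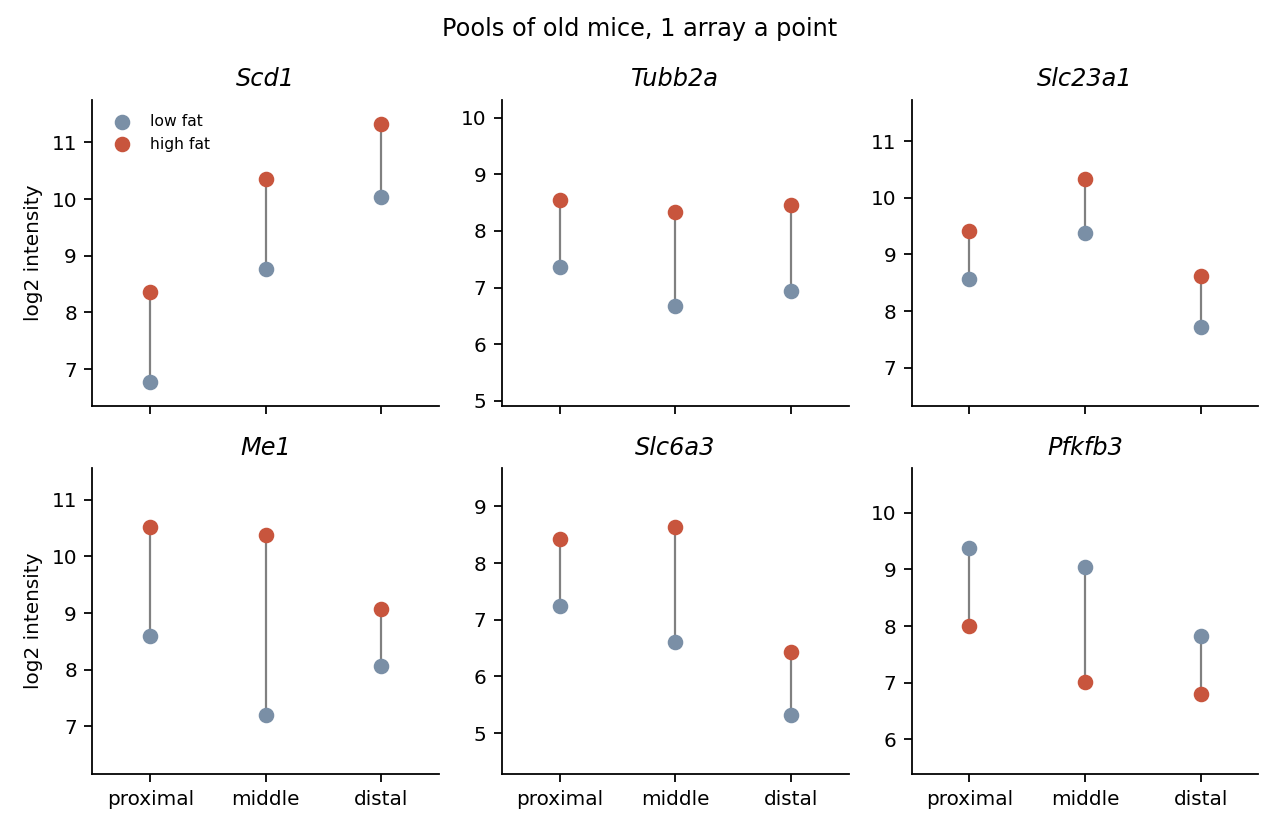
Log2 intensity of 6 genes on the 6 arrays of old mice by segment, low fat in grey-blue and high fat in red, with a line joining the arrays of a segment. In *Tubb2a* the high-fat arrays sit between 8.34 and 8.55 and the low-fat arrays between 6.68 and 7.36.

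Genes of fatty acid uptake were mostly higher on high fat, and the segment with the widest difference varied by gene. Of 13 measured members, 8 were higher in all 3 segments, against 15.0% of all genes, and none was lower in all 3, against 17.7%. *Cd36*, a fatty acid translocase, was higher by 0.56, 0.37 and 0.30 and *Slc27a2*, a very long chain acyl-CoA synthetase, by 0.30, 0.95 and 0.95. *Fabp1*, the liver-type fatty acid binding protein, was near its top in the proximal segment on both diets, at 13.15 and 13.27. In the distal segment it was at 11.43 on low fat and 12.46 on high fat. *Fabp6*, a bile acid binding protein of the ileum, stood on the other side, at -1.26 in the middle segment.

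Some genes of omega-hydroxylation and acyl-CoA hydrolysis were among those with the widest differences. *Cyp4a10* was measured at 6.94 and 8.63, at 5.50 and 8.55 and at 5.14 and 6.00. *Cyp4a31* was higher by 1.84, 2.59 and 0.91. Probe sets of Cyp4a genes can bind transcripts of near-identical copies, so the 2 genes are not separate evidence. *Acot1*, a cytosolic acyl-CoA thioesterase, was higher by 1.74, 2.33 and 0.62, and its close copy *Acot2*, the mitochondrial form, by 0.69, 1.32 and 0.41. The middle segment had the widest difference in all 4, and the distal segment the narrowest. *Cyp4f16* followed another order, with 0.35, 1.14 and 1.19. Of the 7 Cyp4 genes measured, 3 were higher and 2 lower in all 3 segments, and the list's median stayed near 0 (0.06, -0.02 and 0.03). Of the 10 acyl-CoA thioesterases measured, 5 were higher and 1 lower in all 3 segments, with medians of 0.19, 0.31 and 0.31. Along the segments 4, 2 and 4 of these 10 were lower.

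Oxidation genes differed less per gene but mostly in one direction. Of 22 measured mitochondrial members, 20, 22 and 15 were higher along the segments, with medians of 0.19, 0.33 and 0.08. Of them 14 were higher in all 3 segments and none lower in all 3. *Acadl*, the long-chain acyl-CoA dehydrogenase, went from 10.43 to 11.09, from 9.62 to 10.98 and from 9.97 to 10.41. *Acaa2*, the last enzyme of the mitochondrial cycle, was higher by 0.44, 0.88 and 0.18. Among the 16 peroxisomal genes, 10 were higher in all 3 segments and 1 lower. *Acox2*, an oxidase of branched chains and bile acid precursors, was higher by 1.12, 1.69 and 0.33 and *Acaa1b*, a peroxisomal thiolase, by 0.51, 0.91 and 0.76. None of these genes passed the test over segments. Subunits of oxidative phosphorylation had medians nearer 0, of 0.01, 0.09 and -0.03 over 26 genes. Of the 26, 14, 24 and 10 were higher along the segments.

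Genes of triglyceride building and chylomicron assembly were mostly higher on high fat. Of 23 genes of triglyceride synthesis and droplets, 16, 18 and 21 were higher along the segments, and 13 in all 3, with medians of 0.10, 0.20 and 0.20. *Cidec*, a droplet protein, was higher by 0.33, 0.55 and 0.72, while *G0s2*, an inhibitor of triglyceride lipase, was higher by 0.79, 0.76 and 0.46. Of 14 chylomicron and apolipoprotein genes the medians were 0.04, 0.24 and 0.27, and 8 were higher in all 3 segments. *Mttp*, which loads lipid onto apolipoprotein B, was higher by 0.19, 0.41 and 0.51, and its partner subunit *P4hb* by 0.25, 0.54 and 0.55. *Apoa4*, an apolipoprotein of chylomicrons, was at 13.72 and 13.76 proximally and at 13.67 and 13.80 at mid-gut. In the distal segment it was at 12.42 on low fat and 13.72 on high fat. The high-fat value of the distal segment was thus close to those of the upper segments. *Apoe* was the exception in the distal segment, with -0.65.

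Cholesterol synthesis genes were higher in most cases and sterol efflux genes were split. Of 21 synthesis genes, 14 were higher in all 3 segments and 1 was lower, with medians of 0.19, 0.29 and 0.24, and none passed the test over segments. *Insig1*, which holds SREBP in the endoplasmic reticulum and is itself an SREBP target, was higher by 0.72, 1.49 and 1.11. *Pmvk*, a kinase of the mevalonate pathway, was higher by 0.66, 0.30 and 0.57. Of 13 genes on the sterol efflux list, 6 were higher and 5 lower in all 3 segments, with medians of 0.04, 0.12 and 0.02. *Abca1*, which exports cholesterol, was lower in the upper segments (-1.09 and -1.28) and at -0.13 in the distal one. *Mylip*, a ligase that degrades the LDL receptor, was at -1.10 in the middle segment. *Cyp27a1*, the sterol 27-hydroxylase, was at 10.37 and 9.47, at 10.56 and 9.26 and at 9.14 and 8.13, lower on high fat in every pair (mean -1.07 ± 0.10, limma adjusted p = 0.0514).

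Genes of fatty acid synthesis went both ways. Of 17 genes of fatty acid and NADPH synthesis, 8 were higher and 2 lower in all 3 segments. *Scd1* and *Me1* were the wide ones. *Scd2*, a second desaturase, was higher by 0.13, 0.61 and 0.84, whereas *Elovl5*, an elongase of polyunsaturated chains, was lower (-0.50, -0.64 and -0.41). *Fasn*, the fatty acid synthase, differed by 0.27, 0.08 and -0.08, and was named after its values were seen.

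The sugar genes went both ways. Of 23 genes of sugar digestion, transport and glycolysis, 16, 12 and 15 were lower along the segments, and 9 were lower and 3 higher in all 3, against 17.7% and 15.0% of all genes. Each segment's median was -0.04, and the distal one was 0.01 when each array was centred on its median. *Slc2a2*, the basolateral glucose and fructose carrier, was lower (-0.12, -0.63 and -0.88), a difference that widened toward the distal end. *Aldoc*, an aldolase, was higher by 0.68, 1.03 and 0.02. Of 20 genes of peptide and amino acid uptake, 9 were lower and 3 higher in all 3 segments, and *Slc15a1*, the peptide carrier, was among the lower ones (-0.36, -0.53 and -0.24). The medians were -0.06, -0.17 and -0.03, and the distal one was 0.03 after the same centring.

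**Figure D3:**
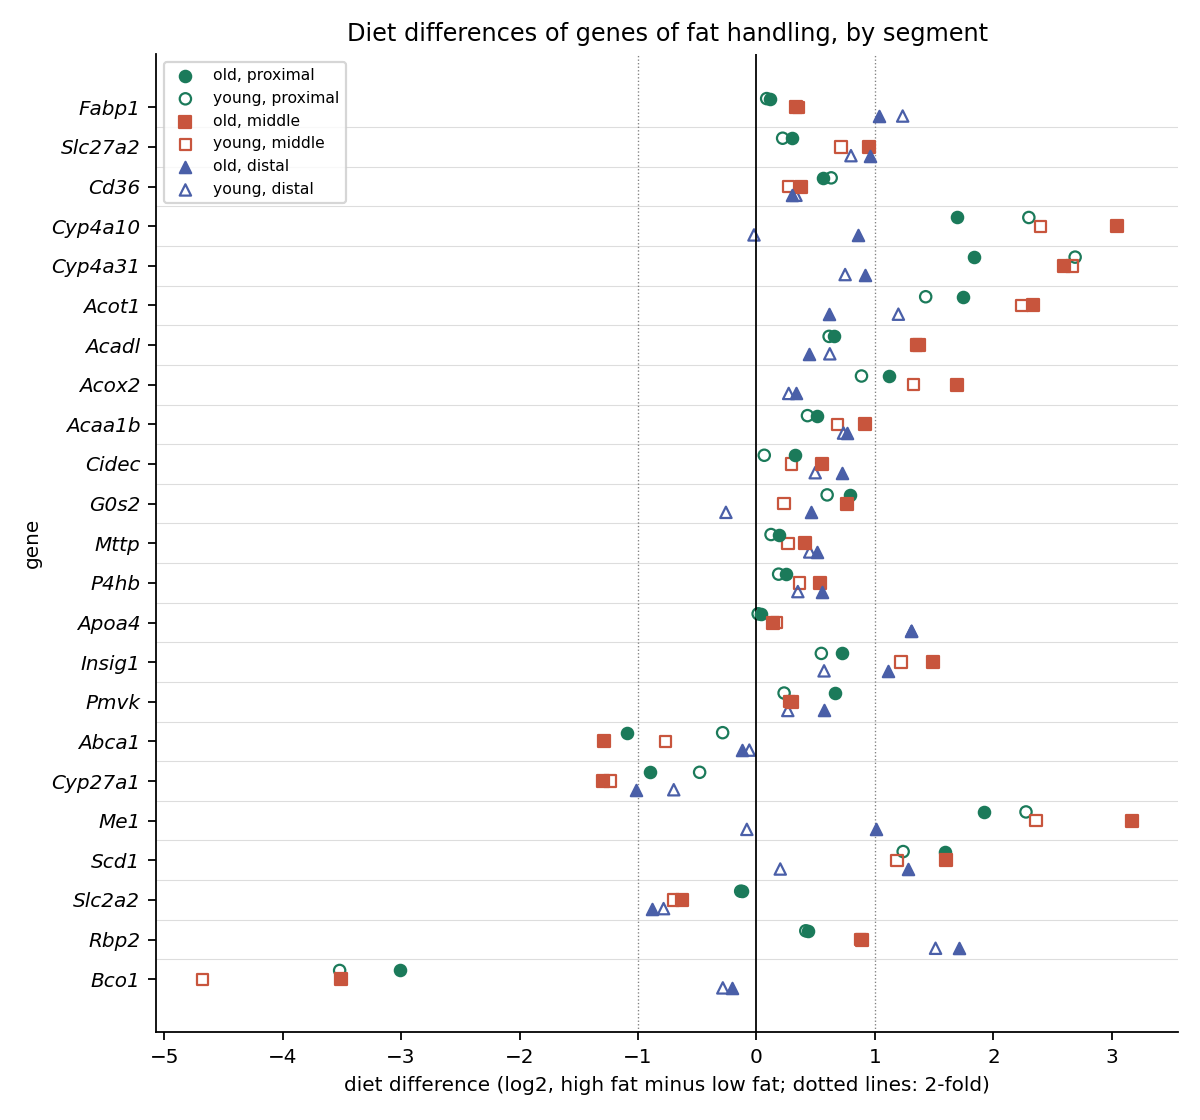
Diet difference (log2, high fat minus low fat) of 23 genes in the proximal (circles), middle (squares) and distal (triangles) segment, filled for old and hollow for young mice, with dotted lines at a 2-fold difference. *Fabp1*, *Apoa4* and *Rbp2* have their widest difference in the distal segment at both ages, and *Bco1* lies far to the left in the proximal and middle segments.

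Retinoid genes held the widest difference on the lower side. *Bco1*, which cleaves beta-carotene into retinal, was at 9.32 on low fat and 6.32 on high fat in the proximal pair, and at 9.10 and 5.60 in the middle pair. Distally it was low on both diets, at 6.48 and 6.27. *Rbp2*, the retinol binding protein of enterocytes, was higher by 0.44, 0.89 and 1.71. On low fat its level dropped from 12.34 in the proximal to 10.53 in the distal segment, and on high fat from 12.78 to 12.23. Of the 16 retinoid genes, 4 were higher and 3 lower in all 3 segments, against 15.0% and 17.7% of all genes.

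The promoters in RefSeq of genes over 2-fold were searched for 2 motifs, because the genes of fat oxidation and sterol synthesis are known targets of PPARα and SREBP. The first was the direct repeat AGGNCANAGGNCA to which PPARα binds, read on both strands in the 300 bases from 250 before to 50 after the start site (RefSeq, GRCm38.p6). It was present in 0.451% of 27025 genes and in 0.357% of the 9534 genes tested here that had a promoter entry. Among the genes over 2-fold in old mice it was found in *Bco1*, lower in the proximal and middle segments, and in *Fabp1*, higher in the distal segment. Both copies lie on the opposite strand. They are shown because, of the 135 genes over 2-fold in old mice, 95 had a promoter entry, and only these 2 of the 95 held the motif. The 63-base windows below, at chr8:117095784-117095846 and chr6:71199787-71199849 on the plus strand, end upstream of the start site, and capitals mark the motif as it reads on the printed strand.

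Bco1: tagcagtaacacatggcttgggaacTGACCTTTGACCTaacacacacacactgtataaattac

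Fabp1: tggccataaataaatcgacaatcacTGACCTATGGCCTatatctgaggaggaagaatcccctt

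The motif ends 43 bases before the start site of *Bco1* and 54 bases before that of *Fabp1*. The 2 genes differed in opposite directions and in different segments. The second motif, the sterol element TCACNCCAC, was present in 1.44% of all genes, and among the same 95 genes in *Aldoc* and *Paqr7* (higher in the middle segment), *Fabp6* (lower there) and *Sec24d* (higher in the distal segment). A match in these windows is a description of letters and not evidence of binding.

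In the proximal segment the widest differences on the higher side included genes of the stomach and Brunner glands. *Gkn2*, a gastrokine of gastric surface cells, was at 4.35 on low fat and 6.82 on high fat. *Gkn3* was at 5.57 and 7.66, and *Tff2*, a trefoil peptide of mucous neck and Brunner gland cells, at 8.58 and 10.23. On the 4 old arrays of the middle and distal segments *Gkn2* lay between 4.09 and 4.28. A gene counted as measured if it passed 50 units on any array. Among old arrays *Gkn2*, *Gkn3* and *Muc6* did so only on the proximal high-fat one. The counts that follow are thus partly set by this filter and are not separate evidence of a rise. Against 0.226% of all genes, 5 of the 11 measured genes of this list were over 2-fold higher in the proximal segment. In all, 9 of the 11 were higher there, with a median of 0.88 against -0.0040 over all genes. Their summed intensity was 1065 on low fat and 2278 on high fat in the proximal segment, and between 381 and 428 on the other 4 arrays. In young mice the same sum was 1478 and 3784. In such mixed tissue, a difference in cell number and one in RNA per cell cannot be told apart, here or in the lists below. In a count added after the values were seen, 28 genes outside this list were over 2-fold in the proximal segment, 22 of them higher.

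Other proximal differences were of single genes. *2310057J18Rik* was higher by 2.36, with -0.02 and 0.23 further down. *Car3*, a carbonic anhydrase of fat and muscle cells, went from 5.57 to 7.73, which was still below its levels of 8.44 to 9.19 in the lower segments. The fat cell genes *Adipoq* and *Fabp4* were higher by 0.61 and 0.55 in the proximal pair, and 8 of 9 measured fat cell genes were higher there, with summed intensities of 2155 and 2654. The same list had 6 of 9 genes higher in the middle pair, with sums of 2206 and 2639, and 8 of 9 in the distal pair, with 2016 and 2418. *Cybrd1*, the ferric reductase of the duodenal brush border, was at 11.12 on low fat and 9.11 on high fat, and between 5.60 and 5.78 on the other 4 arrays. *Pcp4l1* was lower by a wider amount in the upper segments (-1.43, -1.22 and -0.39).

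In the middle segment, some genes that are bright in the distal intestine were lower on high fat beside the fat genes already given. *Nos2*, the inducible nitric oxide synthase, was at 7.45 and 5.45 in the middle pair, but at 9.15 and 8.94 in the distal. *Fgf15*, the ileal hormone that reports bile acid uptake, was at 8.63 and 7.03. It was the only gene over 2-fold in opposite directions, since it went from 4.85 to 6.03 in the proximal pair. Those proximal values are 28.7 and 65.4 intensity units, the first under the limit of 50, and the young proximal difference was 0.04. Among 16 ileal genes 11 were lower in the middle segment, where 6055 of all 11924 genes were, with a median of -0.08. Of the 16, 3 were over 2-fold lower, against 0.134% of all genes. Members of this list went both ways, as *Nr0b2*, a repressor of bile acid synthesis, was higher by 1.29 and the bile acid carrier *Slc10a2* by 0.95. In young mice *Fabp6* differed the other way in the middle segment, by 1.82, and *Fgf15* by -0.65.

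The 25 genes over 2-fold in exactly 2 segments included the following 3. *Kdelr3*, a receptor that returns proteins to the endoplasmic reticulum, was higher by 1.25, 2.56 and 0.88, and none of the other 18 genes of endoplasmic reticulum stress was over 2-fold in any segment. *Mbl2*, a mannose-binding lectin of the complement system, was at 7.83 and 6.13, at 9.54 and 6.56 and at 6.70 and 5.90. *Npl*, which breaks down sialic acid, was lower (-0.75, -2.42 and -2.18). *Ighg3*, an immunoglobulin heavy chain, was higher by 2.56 in the middle segment and differed by -0.38 and 0.31 in the others. In young mice *Ighg3* differed by -2.76, -0.95 and -0.87.

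In the distal segment of old mice, the genes over 2-fold higher included genes of fat handling, and those over 2-fold lower included genes of immune and stromal cells. *Ltc4s*, the leukotriene C4 synthase, was higher by 0.88, 2.18 and 1.71. *Mfsd2a*, a carrier of lysophospholipids, went from 9.41 to 10.37, from 8.77 to 10.20 and from 7.55 to 9.13 (mean 1.32 ± 0.13, limma adjusted p = 0.0518). *Aqp7*, a glycerol channel, was higher by 1.29 in the distal and 1.78 in the middle segment.

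On the lower side, *Car1*, a carbonic anhydrase of red cells and of the large intestine's epithelium, stood at 10.45 on low fat and 7.05 on high fat in the distal segment, and between 4.34 and 4.93 on the other 4 arrays. *Pla2g4c*, a cytosolic phospholipase A2, was at 8.02 and 5.32. *Igkv4-91*, an immunoglobulin light chain segment that cannot be told from its close copies, was at 7.51 and 5.18, against 7.63 to 7.99 on the other 4 old arrays. The other blood genes measured, *Car2* and *Slc4a1*, were at -0.85 and 0.18 in the distal pair. *Adamdec1*, a protease of gut macrophages and stroma, was at 10.11 and 8.42, and *Ogn*, a small matrix proteoglycan, at 6.54 and 5.04. In *Car1*, *Pla2g4c*, *Igkv4-91*, *Adamdec1* and *Ogn* the difference was seen in the distal pair, and the widest difference of any of them in another segment was the -0.52 of *Car1* in the middle one.

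Lists of immune cell genes were lower in the distal pair. Of 18 B cell genes 17 were lower, with a median of -0.57. Against 0.411% of all genes, 2 of the 18 were over 2-fold lower, *Ms4a1* (CD20, from 6.90 to 5.51) and *H2-Ob*. The summed B cell intensity was 1723 on low fat and 1166 on high fat, and between 1147 and 1174 on the 4 arrays of the upper segments. *Ms4a1* was under 50 intensity units on 5 of the 6 arrays. Of 30 myeloid genes 29 were lower, with a median of -0.47, led by *Ly86* (-1.30), *Arhgdib* (-1.18) and *Cd53* (-1.16), and their sum was 23489 and 18488, with 13870 to 21654 on the upper arrays. Of 21 T cell genes 20 were lower, with a median of -0.25, none over 2-fold, and a sum of 3426 and 2728. *Arhgdib* and *Cd53* are known from white blood cells in general, not from myeloid cells alone.

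The stromal lists stood in the same place. Of 20 fibroblast and matrix genes 18 were lower and 6 over 2-fold lower, against 0.411% of all genes. *Dcn*, the proteoglycan decorin, went from 9.42 to 8.05, *Bmp5*, a signal of the stroma, from 6.90 to 5.50, and *Serping1*, the C1 inhibitor, from 7.77 to 6.68. In the middle segment 19 of the same 20 genes were higher, with a median of 0.38 against -0.44 in the distal segment. The sum of the list was 4374 and 3103 distally, and between 3610 and 4303 on the upper arrays. Of 18 smooth muscle genes 14 were lower in the distal pair with a median of -0.47, and *Acta2*, the smooth muscle actin, was at -0.97. Their sum was 5438 and 3867, with 2617 to 3208 on the other 4 arrays. Of 14 endothelial genes 11 were lower, with a median of -0.29.

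Crypt genes were lower in the distal pair as well. All 10 Paneth cell genes were lower there, with a median of -0.66 and a sum of 38113 and 29517, led by *Habp2* (-1.10), *Pla2g2a* (-0.84) and *Ang4* (-0.82). All 27 cell cycle genes were lower there, with a median of -0.32 and with *Rrm1*, a subunit of ribonucleotide reductase, at -0.99. In the proximal segment 23 and in the middle segment 19 of those 27 were higher. Of 17 stem cell and Wnt genes 14 were lower in the distal pair, with a median of -0.16. Interferon-responsive genes differed in sign along the gut, with 24 of 26 higher in the proximal pair (median 0.25), 21 lower in the middle (-0.18) and 23 lower in the distal (-0.49). Enterocyte genes were at a distal median of 0.10 with 12 of 18 higher, and goblet cell genes at -0.07.

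**Figure D4:**
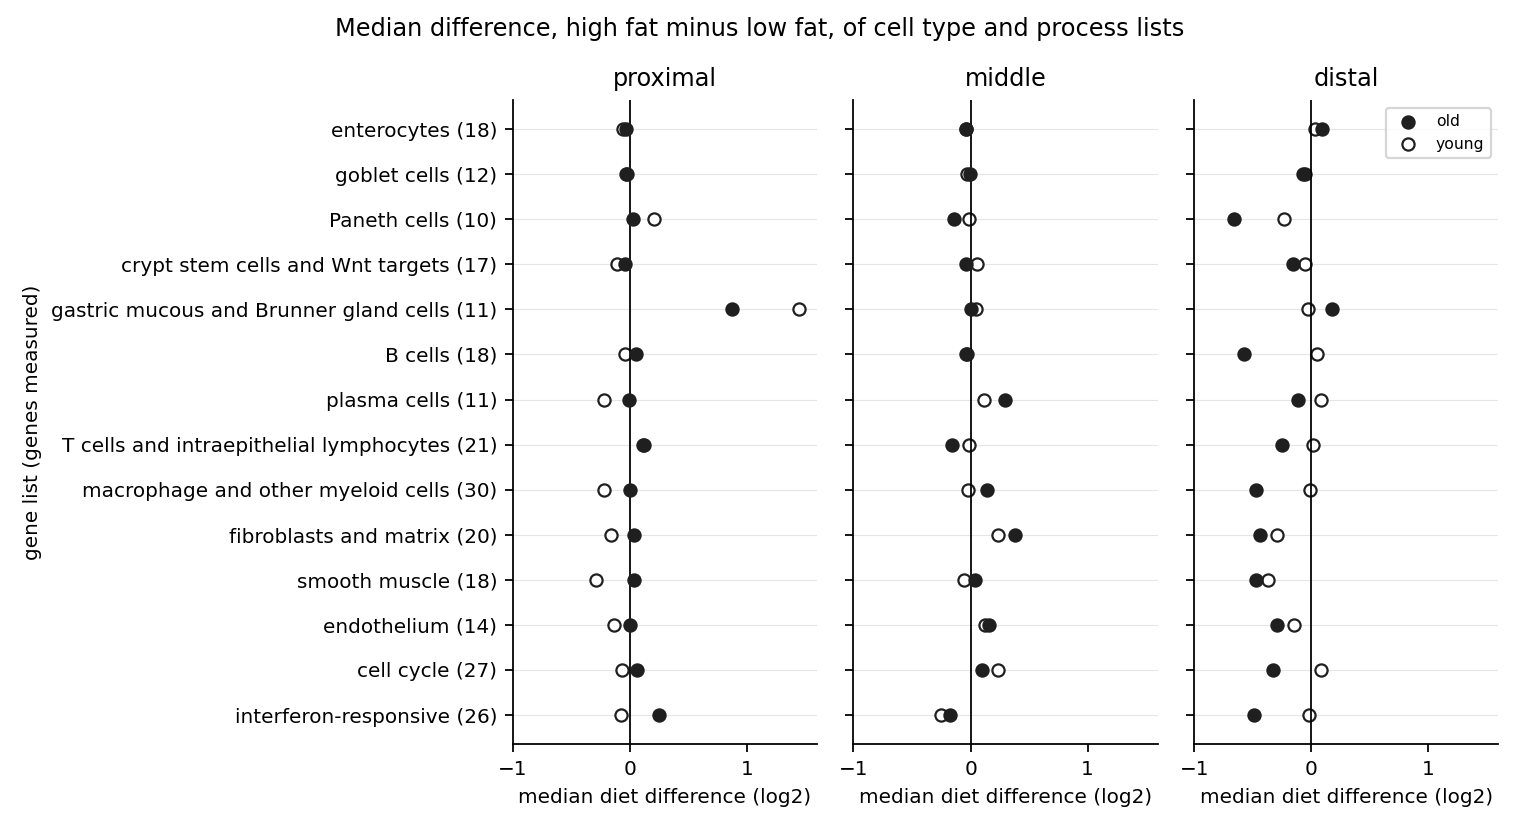
Median diet difference (log2, high fat minus low fat) of 14 gene lists in each segment, with the number of genes measured in parentheses, for old (filled) and young (open) mice. In the distal panel the old points of 11 lists lie between -0.66 and -0.11, while the young points of the B cell, plasma cell, T cell, myeloid, cell cycle and interferon-responsive lists lie between -0.01 and 0.09.

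Several other measures moved with the distal pair, and their part in these differences was not tested. The 140 genes that were over 2-fold brighter in the distal than in the middle segment on the young low-fat arrays had a median of -0.26 in the distal pair of old mice, with 102 lower. The 217 genes that were dimmer in the distal segment had a median of 0.12, with 131 higher. In the middle pair the same medians were 0.02 and -0.0021. *Snord22*, a small nucleolar RNA, and *Rny3*, a Y RNA, were at -1.41 and -1.25 in the distal pair, among 4 of 130 small noncoding RNAs over 2-fold lower (0.411% over all genes), while the median of the 130 was 0.09. In counts added after the values were seen, without genes that differ over 2-fold between neighbouring segments of young mice, the distal pair kept 10 genes higher and 33 lower, and without the cell type lists 22 and 34.

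The young pools were used to ask which of these differences appeared in other mice. Over all 11924 genes the diet differences of old and young mice had a Pearson correlation of 0.38, 0.64 and 0.39 in the 3 segments, which describes genes on 4 arrays each and carries no test. Of the 33 proximal genes over 2-fold in old mice, 31 had the same sign in young mice, and 19 were over 2-fold there. For the middle segment these counts were 64 of 66 and 39. Distally 20 of the 22 higher genes had the same sign, but 34 of the 49 lower genes (69.4%, exact 95% interval 54.6% to 81.7% for counting error only). Of those 49, 4 were over 2-fold lower in young mice, where 0.0503% of all genes were, and their young median was -0.24. Since the 49 were chosen by their values in old mice, any second measure would be expected nearer 0, and the ages are not compared by these values. In all, 63 genes were over 2-fold in at least 1 segment at both ages, out of 135 in old and 105 in young mice.

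For genes of fat handling, some distal differences were alike at the 2 ages and others were not. *Apoa4* differed by 1.30 in old and 1.31 in young mice in the distal segment, *Rbp2* by 1.71 and 1.51 and *Fabp1* by 1.03 and 1.23. *Bco1* differed by -3.51 and -4.68 in the middle segment. At the distal end *Scd1* differed by 1.28 in old and 0.20 in young mice, *Me1* by 1.01 and -0.08 and *Cyp4a10* by 0.86 and -0.02. These single differences have no replicate and no test. Of the distal lists, B cell genes had a young median of 0.05 with a sum of 1731 on low fat and 1950 on high fat, and myeloid genes one of -0.01. Fibroblast and smooth muscle genes had young medians of -0.29 and -0.37, with 18 of 20 and 15 of 18 lower, and all 10 Paneth cell genes were lower (median -0.24).

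Over the segments, no gene had a diet difference in old mice that was told from that in young mice (limma on 12 arrays, smallest adjusted p = 0.999). At an unadjusted p under 0.05 there were 334 genes, 168 with a higher and 166 with a lower difference in old mice. *Mt1* and *Mt2*, metallothioneins that bind zinc, were among the genes whose values differed between the ages without passing the test. *Mt1* was lower in old mice (-0.42, -0.61 and -0.76) and higher in young mice by 0.49, 0.10 and 0.06 (old minus young -0.81, limma adjusted p = 0.999). *Mt2* differed by 0.01, -0.67 and -1.05 in old and by 1.27, 0.88 and 0.10 in young mice. For *Scd1* the difference between the ages was 0.61 (95% interval 0.02 to 1.21, adjusted p = 0.999) and for *Tubb2a* 0.18 (-0.37 to 0.73). Both genes were chosen by their old values, which this contrast uses again. The intervals are not adjusted for the number of genes, and neither gene passed the test between the ages.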

How the data were processed

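The log2 intensities were made by the authors with Robust Multi-array Average (version not given in the sources used here) and deposited per Affymetrix transcript cluster, 1 array per segment, age and diet. Of 35556 probe sets, 21789 listed 1 gene symbol and were used, with the brightest standing for a gene, and 11948 genes passed an intensity of 50 on at least 1 of 12 arrays. After 24 pancreatic acinar genes were removed, 11924 remained. Old arrays were fitted with limma 3.58.1 in R 4.3.3 (segment as block plus diet, 2 residual degrees of freedom), and old minus young on 12 arrays with 4. Benjamini-Hochberg adjusted p under 0.05 was called. The number of arrays limits precision. On simulated data for 11924 genes, the fit of old arrays found 42%, 90% and 100% of genes changed by 0.5, 1 and 2. On the measured arrays, *Me1*, *Slc6a3* and *Pfkfb3* were over 2-fold in all 3 segments of old mice and were not called. How these shares carry over to genes whose difference varies between segments was not tested.

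The comparison, the 45 gene lists (651 members measured) and the rule for named genes were chosen with earlier results of these data known, so no p is given for a list. The rule took the 6 widest differences of each segment in each direction, and genes over 2-fold in all 3 segments or in opposite directions. It also took called genes and the 4 widest of each list described. Not every gene under the rule is named, and some lists are described without naming a member. Alternatives changed filter, scaling, probe set rule, variance model and segments.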

Additional observations from a re-analysis of the deposited data

How the results depend on the processing

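Of the 3 rises over segments, *Scd1* and *Tubb2a* passed under every alternative except the fit without the segment block, and *Slc23a1* missed the threshold under 6 of 12. The count of called genes was 2 with the acinar genes kept, with median centring and when probe sets were averaged per gene, 5 with no intensity filter, 19 with an intensity over 50 on all arrays, 10 after quantile normalization, 38 with the error of all 12 arrays (25 rises, 13 falls), 111 with an intensity trend and robust prior variance (69 and 42), and 0 without the segment block, where 192 had an unadjusted p under 0.05. Leaving out 1 segment in turn gave 3 to 110. The cause of these changes was not tested. With an intensity over 50 required on all arrays, 9885 of the 11924 genes stayed. Of these, 11, 43 and 46 were over 2-fold in the proximal, middle and distal segments, against main counts of 33, 66 and 71. The other genes of the main counts were at or under 50 on at least 1 array. Chosen after the data were seen, counts without genes that mark a segment were 17, 32 and 43. The old minus young contrast gave 0 calls under each alternative run. A random block for the pool of mice was not run, because the age and diet terms of the fit already contain it. The samples' labels pair arrays by segment, and that pairing was the block of the fit of old arrays. Centring or quantile normalization left the sign of each distal list median named above for immune, stromal, Paneth and cell cycle genes.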

Other observations

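Probe sets that list several symbols, which were not used for the gene counts, numbered 884 over the intensity limit. In old mice 9 of them were over 2-fold higher and 0 lower proximally, 7 and 0 at mid-gut, and 3 and 19 distally, all without a test. Many of them repeat the same symbols, so these are not counts of separate genes. Several that list Rdm1 and Rnu2-10 shared the values 1.16, 0.48 and -1.78, over 2-fold higher proximally and over 2-fold lower distally. One that lists Cyp4a32, Cyp4a31 and Cyp4a10 was higher by 1.70, 2.86 and 0.96 from the upper to the lower segment. One that lists Gm44805 and Apoc2, an activator of lipoprotein lipase, was higher by 0.20, 1.16 and 2.50. Several that list the Ccl21 chemokine genes of lymphatic vessels shared the values -0.09, 0.55 and -1.45.

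Probe sets without a symbol numbered 6001 over the limit. Of these 87 were over 2-fold higher and 100 lower proximally, 29 and 230 at mid-gut, and 125 and 135 distally.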
